A study of Homo sapiens with 2 samples.

Results

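The genes described here serve the building of ribosomes in the nucleolus, and their transcript levels were compared between LN229 cells that overexpressed the microRNA miR-127-3p and LN229 cells that did not. They were chosen by name as a list of 43 genes, and a gene counted as measured where the array annotation gave a probe set that gene's symbol alone. This held for 37 of the 43 genes, which had 76 probe sets, out of 19775 genes named on the arrays. NOP56, DKC1, BOP1 and PPAN had only probe sets annotated with several symbols, and GNL3 and DDX18 were named in no probe set of the annotation used, so these 6 genes have no value here.

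LN229 is an established human glioblastoma line, and both cultures, labelled as LN229, were grown in DMEM with 10% fetal bovine serum. One culture carried pSUPER.neo-miR-127-3p, a plasmid that drives the microRNA, and the other carried pSUPER.neo without it. Total RNA of each was hybridised to 1 Affymetrix 3′ expression array, so there was 1 array per group, no test between groups was possible and no difference below has a replicate check. The labels do not say whether cells were a clone or a pool. The question was which genes the microRNA regulates in a glioblastoma line.

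A microRNA guides the silencing of transcripts that pair with its seed, which here spans bases 2 to 8 of the mature strand. The sequence is shown because it is the labelled difference between the cultures, with the seed in capitals. RefSeq places it on the plus strand of GRCh38.p14 at chr14:100883035-100883056.
hsa-miR-127-3p: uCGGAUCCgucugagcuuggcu
Pairing of this seed with transcripts of ribosome biogenesis genes was not analysed here.

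Ribosomes are made from a long precursor RNA that RNA polymerase I copies from ribosomal DNA. Small nucleolar ribonucleoproteins (snoRNPs) then modify it, and assembly factors fold, cut and package it into the small and the large subunit. The pathway takes up much of the synthetic effort of growing cells, and the transcription factor MYC is a known activator of many of its genes. Enlarged nucleoli are a common feature of tumour cells.

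The arrays differed widely outside this pathway. Median signals were 83.3 arbitrary units in miR-127-3p cells against 93.9 in control cells. Of 13 epithelial markers with a probe set, 11 were brighter on the control array, and their signals summed to 7763 in miR-127-3p cells against 93404 in control cells. KRT14, GRHL2 and CLDN7 were below the array median on both arrays, and 9 of the 13 were below it with miR-127-3p against 4 in the control. EPCAM, an epithelial adhesion molecule, gave 30.2 and 9181. Of 15 glial markers 10 had more signal in control cells, and the summed signals were 90304 and 88558, most of which came from VIM and CD44. Log2 ratios were -1.63 for SOX9, -1.24 for SOX2 and -1.03 for NES, while SLC1A3 gave 2689 and 73.9. GFAP, OLIG1, SLC1A2 and AQP4, which mark glial lineages, were below the array median on both arrays, whereas S100B, SOX2, NES and VIM were above it on both and SLC1A3 in miR-127-3p cells alone. MYC gave 578 in miR-127-3p cells against 6931 in control cells at its only probe set, for a log2 ratio of -3.59. That both cultures are of one line rests on the labels and was not tested, and neither was the part of these differences in the values that follow.

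Most ribosome biogenesis genes had similar signals on both arrays. All 37 genes passed the filter on mean signal, and all 37 were above the array median on both arrays, the lowest signal being 184. The log2 ratio is miR-127-3p minus control, computed on log2(signal + 1) of the brightest probe set of each gene and centred on the median of 11985 genes that passed the filter. Lower in miR-127-3p cells by 2-fold or more were 3 of the 37 genes, which is 8.11%, and none was at least 2-fold higher. Over all 11985 genes 8.67% were at least 2-fold lower and 5.06% at least 2-fold higher, or 13.7% in either direction. Thus the share of lower genes was close to the background. Among the 9646 genes that were at least as bright on both arrays as the dimmest of the 37, 4.49% were lower and 3.5% higher by that rule. This cut is a lower bound and not a match of brightness. It also removes genes that are dim on either array, whose ratios can be large, so it partly sets these shares.

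The ratios of the 37 genes were centred near 0. Their median log2 ratio was -0.01, with quartiles of -0.35 and 0.18, and 19 lay below 0 and 18 above it. Under other processing their median ran from -0.09 to 0.08. The 0.08 came from scaling each array to its 75th percentile without centring, where the median of all genes was also 0.08. Over all genes the quartiles were -0.41 and 0.37, around a median that the centring sets to 0. Within 0.5 of 0 lay 26 of the 37 genes, or 70.3%, against 61.1% of all genes. Among genes at least as bright on both arrays as the dimmest of the 37, the share was 67.4%. Probe sets of the same gene are the only measure of error within these arrays. Their log2 ratios had an SD of 0.41 per probe set over 5974 genes, from the brightest and second brightest of each, and of 0.28 over the 17 ribosome biogenesis genes with more than 1 probe set above the filter. This spread holds no variation between cultures. It also leaves out probe sets dimmer than the second brightest, such as that of POLR1A at -1.27.

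**Figure D1:**
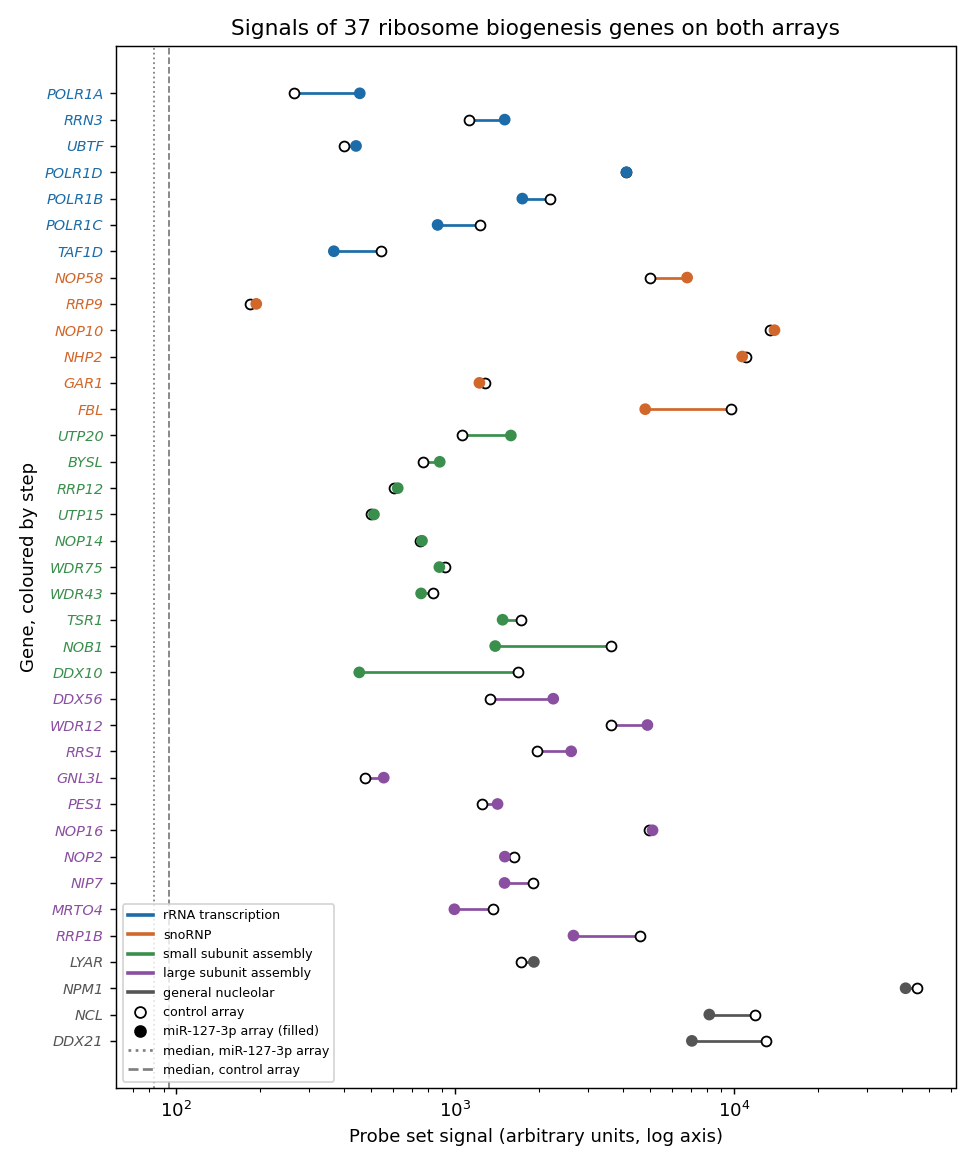
Signals of the brightest probe set of 37 ribosome biogenesis genes on a log axis in arbitrary units, with the control array as open points, the miR-127-3p array as filled points and genes coloured by step. All points lie to the right of both array medians (vertical lines), and DDX10, NOB1 and FBL have the widest gaps towards lower miR-127-3p signals. Positions of different genes cannot be compared, because each probe set has its own response.

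Genes of ribosomal RNA transcription stayed within 2-fold at their brightest probe sets, with a median log2 ratio of -0.01 over 7 genes. POLR1A, the largest subunit of RNA polymerase I, gave 455 in miR-127-3p cells against 265 in control cells, for a log2 ratio of 0.77. Its probe sets disagreed, with 435 against 221 and 72.7 against 175 at the dimmer ones, so that the ratios ran from -1.27 to 0.96. POLR1B, the second largest subunit, gave 1743 and 2198, a ratio of -0.35, with 3 of its 4 probe sets below 0 and the fourth at 0.42. The direction of either subunit therefore depends on the probe set.

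POLR1C and POLR1D are subunits that RNA polymerase I shares with RNA polymerase III. POLR1C gave 865 in miR-127-3p cells against 1233 in control cells, for a log2 ratio of -0.52, and its other probe set was at -0.36. POLR1D gave 4119 and 4101, a ratio of -0.01, although its other probe sets reached -0.81. Of the 5 probe sets of this pair of genes 4 were brighter in control cells, the exception being the brightest of POLR1D.

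The factors that bring the polymerase to ribosomal DNA differed in direction. RRN3, which links the polymerase to the promoter, gave 1507 in miR-127-3p cells against 1126 in control cells, for a log2 ratio of 0.41. UBTF, which binds and opens ribosomal DNA, gave 441 and 399, a ratio of 0.13, with probe sets on both sides of 0. TAF1D, a subunit of the promoter selectivity factor SL1, gave 367 and 544, a ratio of -0.58. Of these 3 genes TAF1D and RRN3 each had 1 probe set of its symbol alone. A further 2 of each were annotated with several symbols and were not used.

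Components of snoRNPs had log2 ratios near 0 except for FBL and NOP58. FBL encodes fibrillarin, the methyltransferase of box C/D particles, and gave 4811 in miR-127-3p cells against 9813 in control cells. It was 2.06-fold lower, for a log2 ratio of -1.04, at its only probe set. NOP58, a core protein of the same particles, gave 6802 and 5011, a ratio of 0.43. These proteins of one particle thus stood on opposite sides of 0. RRP9, which belongs to the U3 particle of the box C/D class, gave 193 and 184, a ratio of 0.06.

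The box H/ACA particles guide the conversion of uridine to pseudouridine, and all 3 of their measured proteins had nearly equal signals on both arrays. GAR1 gave 1223 in miR-127-3p cells against 1283 in control cells, for a log2 ratio of -0.08. NHP2 gave 10719 and 11024, a ratio of -0.05. NOP10 gave 13999.9 and 13454, a ratio of 0.05. Each had 1 probe set, and each ratio was smaller than the probe set SD of 0.41.

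Small subunit assembly held the other genes past 2-fold, DDX10 and NOB1, while the median over its 10 genes was -0.03. DDX10, an RNA helicase of early precursor processing, gave 453 in miR-127-3p cells against 1687 in control cells. It was 3.75-fold lower, for a log2 ratio of -1.91, and 3.1% of all genes had a ratio as low or lower. A second DDX10 probe set was below the filter, at 11.3 and 0.98, both far under the array medians. NOB1, the nuclease that makes the final cut at the end of 18S ribosomal RNA, gave 1393 and 3634 and was 2.63-fold lower, a ratio of -1.39. Like FBL, both rested on 1 probe set above the filter, so the agreement of probe sets could not be assessed for any of the 3 lower genes.

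The other 8 genes of small subunit assembly stayed within 2-fold. UTP20, a large scaffold protein of the processome that builds the small subunit, gave 1585 in miR-127-3p cells against 1058 in control cells, for a log2 ratio of 0.57. TSR1, a late assembly factor, gave 1481 and 1730.4, a ratio of -0.24, and all 4 of its probe sets lay between -0.69 and -0.18. BYSL, known as bystin, gave 881 and 767, a ratio of 0.19. Early processome proteins were closer to 0, with NOP14 at 0.01, UTP15 at 0.02, WDR75 at -0.08 and WDR43 at -0.15, and RRP12, an export factor, was at 0.03. Signals on the miR-127-3p array for these 5 genes ran from 512 to 878.

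Genes of large subunit assembly all stayed within 2-fold, with a median log2 ratio of 0.11 over 10 genes. PES1 and WDR12 form a complex with BOP1 that processes the large subunit precursor. PES1 gave 1420 in miR-127-3p cells against 1246 in control cells, a ratio of 0.18. WDR12 gave 4899.7 and 3628, a ratio of 0.42, while its dimmer probe sets were at 0.10 and -0.19. Both were brighter with miR-127-3p at their brightest probe sets by amounts near or below the probe set SD.

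The widest ratios of this step, those of DDX56 and RRP1B, pointed both ways. DDX56, an RNA helicase, gave 2250.1 in miR-127-3p cells against 1329.9 in control cells, for a log2 ratio of 0.75, and a second probe set below the filter gave 50.1 and 98.9. RRP1B, a nucleolar protein of large subunit processing, gave 2659 and 4627, a ratio of -0.81, but 111 and 69.8 at its other probe set, a ratio of 0.65. RRS1, which brings the 5S particle to the precursor, gave 2609.6 and 1963, a ratio of 0.40. RRP1B was thus opposed between its probe sets above the filter, while DDX56 had only 1 above it.

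Probe sets agreed in sign for 3 of the remaining genes of this step that had more than 1 above the filter. MRTO4, a factor of the subunit's stalk, gave 994 in miR-127-3p cells against 1364 in control cells, for a log2 ratio of -0.47, with -0.41 at its other probe set. NIP7, a factor of precursor processing, gave 1505 and 1900.2, a ratio of -0.35, with -0.11 at its other. NOP16 gave 5111 and 4943, a ratio of 0.04, and 0.19 at its second entering probe set. NOP2, a methyltransferase of large subunit RNA, was at -0.12 with 1 probe set, and GNL3L, a nucleolar GTP-binding protein, was at 0.21 with probe sets between -0.11 and 0.35.

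Of 4 genes of abundant nucleolar proteins with several roles, 3 had log2 ratios below 0, against 50% of all genes, and their median was -0.36. DDX21, an RNA helicase of ribosomal RNA transcription and processing, gave 7073 in miR-127-3p cells against 13027 in control cells, a ratio of -0.89. Its second probe set gave 5490 and 9783, a ratio of -0.84, so both probe sets were lower by like amounts that stayed within 2-fold. NCL, which encodes nucleolin, gave 8169 and 11962, a ratio of -0.56, at its only probe set above the filter. NPM1, which encodes nucleophosmin, gave 41356 and 45574, a ratio of -0.15, with 3 probe sets between -0.23 and -0.15. NPM1 has many near-identical pseudogenes, so the source of its signal is uncertain. LYAR, a nucleolar protein of growing cells, was at 0.14 and 0.28.

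**Figure D2:**
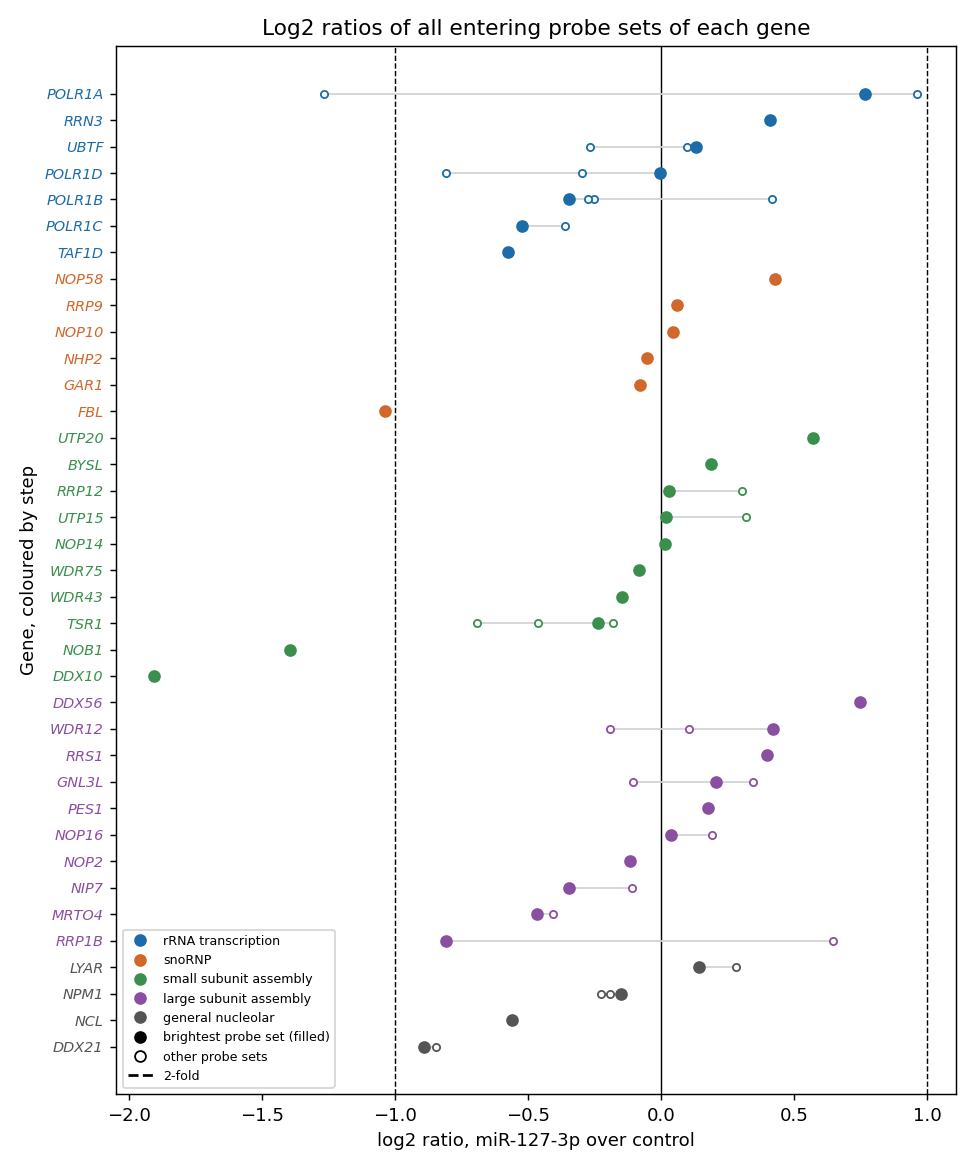
Log2 ratios (miR-127-3p over control) of every probe set above the filter for 37 genes, with the brightest probe set of each gene filled and the others open. Dashed lines mark 2-fold, and 3 filled points lie beyond the lower line, each with no other probe set beside it. The probe sets of POLR1A span from -1.27 to 0.96.

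Counted by probe set, 36 of the 64 above the filter had ratios below 0 and 28 above it. At least 2-fold lower were 4 of them, namely those of FBL, DDX10 and NOB1 and the dimmest of POLR1A, and none was at least 2-fold higher. Of the 17 genes with more than 1 such probe set, 11 had all on the same side of 0. The other 6 were POLR1A, POLR1B, UBTF, WDR12, RRP1B and GNL3L. Of the 12 probe sets below the filter 6 differed by at least 2-fold in either direction, at signals no higher than 78.0. The counts of this paragraph were not made over all probe sets, so they have no background here.

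A longer list of other ribosome biogenesis genes was described in the same way. Of its 119 genes 114 passed the filter, 2 or 1.75% were lower by 2-fold or more and no gene was higher by as much. Over all genes these shares were 8.67% and 5.06%. Over the genes at least as bright on both arrays as the dimmest of the 37 they were 4.49% and 3.5%. The median log2 ratio was -0.10, and from -0.15 to -0.02 under other processing, with quartiles of -0.37 and 0.19. The -0.02 came from the uncentred scaling to each array's 75th percentile. NOLC1, a chaperone of snoRNPs, gave 2468 in miR-127-3p cells against 6042 in control cells and was 2.47-fold lower, its 3 probe sets lying between -1.30 and -0.83. RRP7A, a small subunit factor, gave 275 and 678 and was 2.48-fold lower, its 3 probe sets lying between -1.31 and -0.45. Unlike the 3 genes above, each had 3 probe sets of its symbol alone that agreed in sign. With the mean of these, however, RRP7A was at -0.95, within 2-fold, and NOLC1 at -1.11. RIOK1, at 579 and 1151, was just inside the lower 2-fold bound with a log2 ratio of -0.9999, and TSR2 was at -0.97. RRP1 was at 0.96, inside the upper bound, but at -0.63 at its other probe set. The count of 2 thus depends closely on where the bound lies.

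By step, the 9 further genes of ribosomal RNA transcription had a median log2 ratio of 0.27 and the 7 of snoRNPs one of -0.20. Small subunit factors were at -0.01 over 42 genes, and large subunit factors at -0.11 over 39 genes, 30 of which had ratios below 0. The exosome, which trims the ends of precursor RNA, was at -0.17 over 13 genes, with 10 below 0. General nucleolar genes of this list were at -0.19 over 4 genes, with 2 below 0 and 2 above it. Across all genes 50% lay below 0, a share that centring sets.

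**Figure D3:**
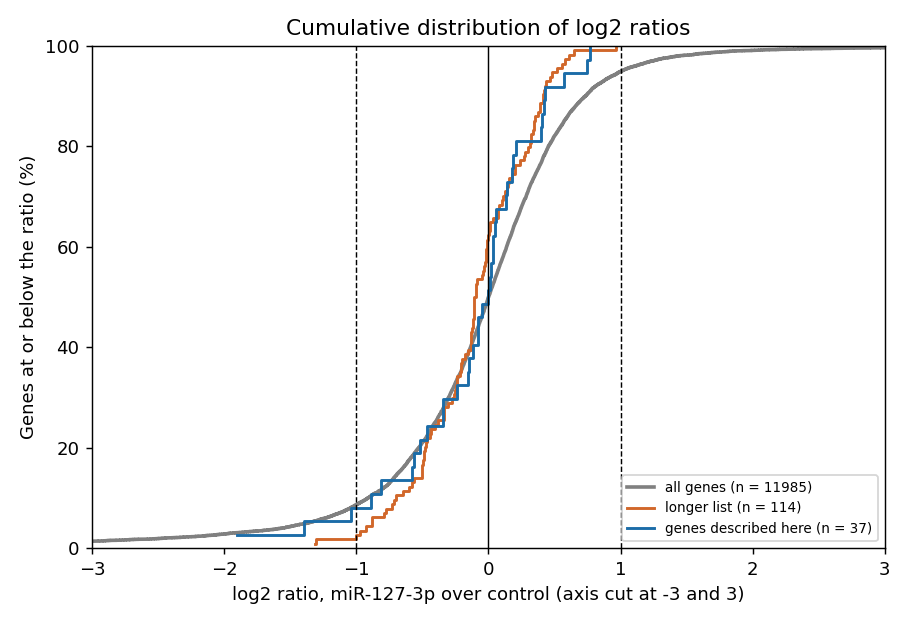
Cumulative percentage of genes at or below each log2 ratio (miR-127-3p over control) for 37 measured ribosome biogenesis genes, 114 of the longer list and all 11985 genes, with 2-fold marked by dashed lines. Neither list has a gene beyond the upper 2-fold line, which 5.06% of all genes pass. Beyond the lower one lie 8.11% of the 37 genes, 1.75% of the 114 and 8.67% of all genes.

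Transcripts that host snoRNAs in their introns were measured for 3 of 12 listed genes, and all 3 were brighter in the control. EPB41L4A-AS1 gave 3266 in miR-127-3p cells against 7396 in control cells and was 2.28-fold lower, with a second probe set at -0.51 and a mean of both at -0.85, which is within 2-fold. ZFAS1 gave 12974 and 24275, which is a log2 ratio of -0.92 in a range from -0.92 to -0.68 over 4 probe sets. GAS5 gave 85.5 and 108, near the array medians. A further 4 probe sets of GAS5 were annotated with several symbols and were not used. The other listed hosts had only such probe sets, so they have no value here.

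The arrays also carry control probe sets for ribosomal RNA itself. The labelling kit primes from poly-A tails, which ribosomal RNA mostly lacks, so these signals are no measure of its amount. For 18S RNA the probe sets gave 29757, 16520.5 and 16654 with miR-127-3p at the 3′ end, the middle and the 5′ end, and 19414, 10242.5 and 12566 in the control. Log2 ratios were 0.60, 0.68 and 0.39, all above 0. For 28S RNA the middle probe set gave 2291 and 2251 and the 5′ probe set 18019 and 20058, ratios of 0.01 and -0.17. The 28S probe set of the 3′ end gave 90.5 and 8.42, too dim for a ratio.

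A sequence feature that the choice of genes did not use is the canonical E-box, CACGTG, which MYC and its partner MAX are known to bind. It was searched in RefSeq promoters of GRCh38.p14, from 250 bases before to 50 after the start site, and it reads the same on both strands. A promoter was found for 33 of the 37 genes, and 13 of these genes, or 39.4%, had an E-box in at least 1 promoter. Of the longer list 29.9% of 97 genes had one. So did 12.9% of the 9819 measured genes with a promoter and 8.77% of all 27305 genes with a promoter. Counted by single promoter and not by gene, the share was 7.26% of 35116. In the 13 genes 12 of 14 E-boxes began within 50 bases of the start site. Positions of E-boxes in other promoters were not examined, so this count has no background.

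Windows of 30 bases around the E-box, in capitals, are shown for genes at both ends of the range of ratios and for genes near 0, 5′ to 3′ on the strand of the gene.
FBL: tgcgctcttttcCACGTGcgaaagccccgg
DDX21: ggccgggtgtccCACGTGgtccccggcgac
MRTO4: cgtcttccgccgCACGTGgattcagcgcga
NOP14: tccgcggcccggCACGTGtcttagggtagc
RRP9: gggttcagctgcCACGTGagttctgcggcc
PES1: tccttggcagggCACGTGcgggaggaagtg
UTP20: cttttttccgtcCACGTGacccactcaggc
The FBL window lies at chr19:39846356-39846385 on the minus strand, with the E-box beginning at base 7 of the transcript. That of DDX21 lies at chr10:68956604-68956633 on the plus strand, where the E-box begins 31 bases before a start site, and that of MRTO4 at chr1:19251807-19251836 on the plus strand. The NOP14 window is at chr4:2963374-2963403, the RRP9 window at chr3:51941892-51941921 and the PES1 window at chr22:30591880-30591909, all on the minus strand. The UTP20 window is at chr12:101280083-101280112 on the plus strand, with the E-box beginning 10 bases before the start site.

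Genes with and without an E-box had overlapping log2 ratios. The 13 with one had a median of 0.01, from -1.04 for FBL to 0.57 for UTP20, and 1 of them was at least 2-fold lower. The 20 without one had a median of -0.07, from -1.91 for DDX10 to 0.77 for POLR1A, and 2 were at least 2-fold lower. Over all measured genes with a promoter the medians were 0.02 with an E-box and 0.01 without, and 8.23% and 8.17% were at least 2-fold lower. A match in a promoter is a description of its letters and not a measured binding site.

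**Figure D4:**
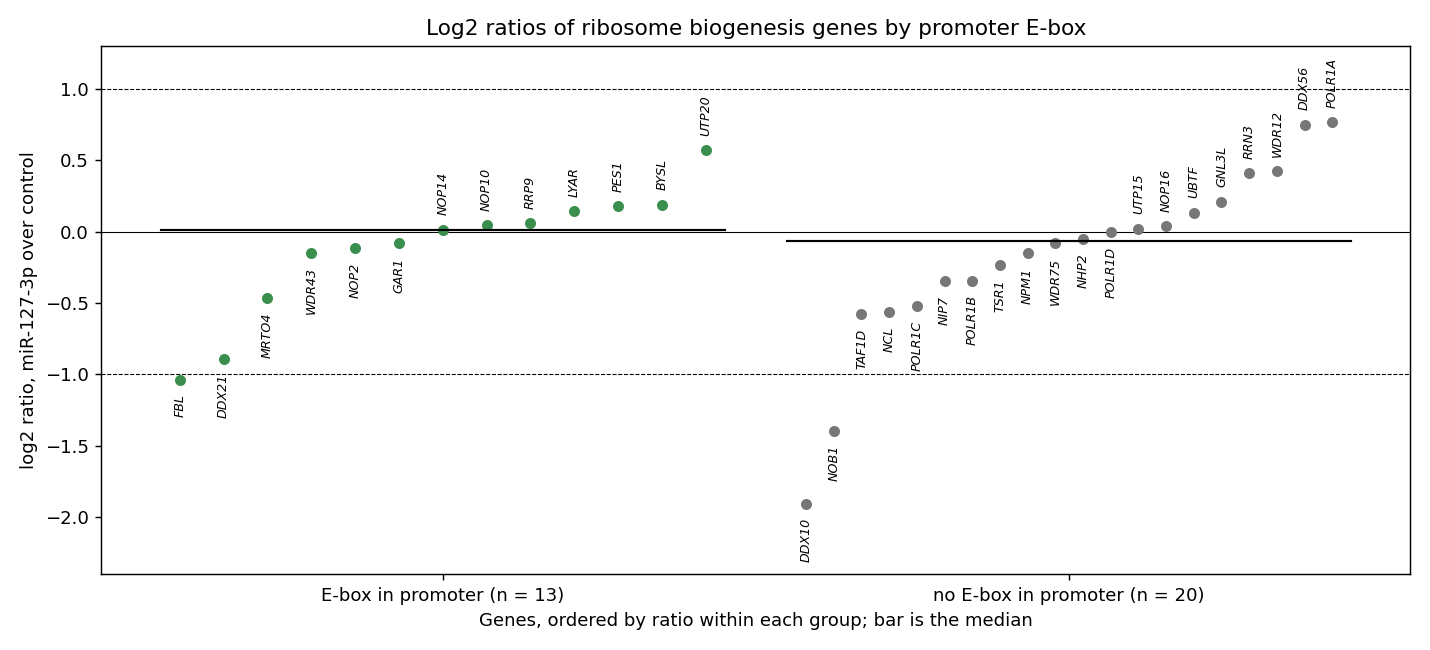
Log2 ratios (miR-127-3p over control) of 33 ribosome biogenesis genes by whether a RefSeq promoter holds CACGTG, with each point a gene and the bar the median. The 13 genes with an E-box and the 20 without cover overlapping ranges around medians of 0.01 and -0.07.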

How the data were processed

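The authors deposited 1 linear signal intensity per probe set and array, which they brought to a common level, judged from the values: with 2% of probe sets trimmed at each end, the mean was 500.1 on both arrays. How probes were summarised and background was removed is not stated in the labels. RNA was extracted with Trizol and labelled with an Affymetrix 3′ kit, per the labels' protocols, so signals come mainly from transcript 3′ ends.

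The platform annotation gave 1 symbol to 41091 of 54613 non-control probe sets, several to 1801 and none to 11721, and symbols were updated through a RefSeq table of GRCh38.p14. Signals became log2(signal + 1). Probe sets were kept where the mean of both log2 values exceeded the median of non-control probe sets, a signal of about 83.0, and the brightest stood for its gene. Ratios were centred by subtracting 0.01, and the pseudocount understates folds of dim genes. Without replicates, genes past 2-fold were counted by that rule of size, and the number of arrays limits precision. Arrays were simulated with the probe set spread as noise and run on 11984 genes. All 61 genes made 4-fold different were counted, as were 38.5% of 26 made 2-fold higher. So were 58.6% of 29 made 2-fold lower and 1.4% of 11868 unchanged ones. The simulated noise held no variation between cultures, so these shares are not error rates for the comparison of the cultures. Genes named were all of the 43, members of the longer list past 2-fold whose probe sets agreed in sign, measured snoRNA hosts, markers and MYC. RIOK1, TSR2 and RRP1 of the longer list were named because they lay just inside 2-fold. The genes, steps and lists were chosen with earlier results of these data known, and the genes whose windows are printed were picked after their values were seen. Alternatives changed the threshold, filter, scaling, pseudocount, probe set rule and floor. Those that changed the scaling were not centred on the median of all genes. Python 3.11.15, numpy 2.4.6, pandas 2.3.3, statsmodels 0.14.6 and matplotlib 3.10.9 were used.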

Additional observations from a re-analysis of the deposited data

How the results depend on the processing

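No paired analysis was possible because each group had 1 array. DDX10 and NOB1 were at least 2-fold lower under all 13 alternatives. Each had 1 probe set above the filter, so changes of threshold, filter, floor and probe set rule could alter its ratio only through centring. FBL, which also had 1 probe set above the filter and so the same limit, was at least 2-fold lower under 11. It was at -0.96 with each array scaled to its 75th percentile, where ratios were not centred and the median of all genes was 0.08. It had no probe set without a cross-match suffix. With a 1.5-fold threshold 5 of the 37 genes were lower, adding RRP1B and DDX21, and 2 were higher, POLR1A and DDX56, against 2167 and 1743 of all genes, or 18.1% and 14.5%. Over all genes the 2-fold counts were 3400 lower and 2531 higher with no filter, and 387 and 259 with a filter at the 75th percentile, against 1039 and 607. The median of the 37 genes ranged from -0.09 to 0.08, the latter with the uncentred scaling to each array's 75th percentile. That of ribosomal RNA transcription was -0.22 with the 75th percentile filter, which left out POLR1A, UBTF and TAF1D, and -0.12 with the mean of all probe sets. Without cross-match suffixes 28 genes were left, 12 of them below 0, and the median of general nucleolar genes was -0.88, which is DDX21 alone. POLR1A moved to 0.15 and RRP1B to -0.08 with the mean of all probe sets, and POLR1B to 0.43 and TSR1 to -0.68 without suffixes, so the direction of POLR1B depends on that choice. With the mean of all probe sets RRP7A, at -0.95, and EPB41L4A-AS1, at -0.85, were within 2-fold. Signal near the array medians limits GAS5 and the dim probe sets.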
